A study of Mus musculus with 8 samples.

Results

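Sono-seq libraries of the mouse hippocampus were read at 4 transcription factor genes of excitatory neurons, Neurod1, Neurod2, Neurod6 and Prox1. Each locus was taken as a fixed window on the mm9 build: chr2:79280000-79310000 for Neurod1, chr11:98170000-98205000 for Neurod2, chr6:55610000-55645000 for Neurod6 and chr1:191925000-192010000 for Prox1. A row of the deposited region table belonged to a locus where it overlapped the window. By this rule 5 of the 11304 listed regions were found, 2 at Neurod2 and 3 at Prox1, and all 5 lay wholly inside their window. The Neurod1 and Neurod6 windows held 0 listed regions and were described from the peak lists of the single libraries alone.

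The conditioned group was 4 C57BL/6J male mice of 2 months, handled daily for 3 days and dissected 30 min after contextual fear conditioning. In this training a chamber is paired with a single foot shock, here 2 s at 1.5 mA. The control group was 4 mice of the same strain, sex and age that were handled but not trained, with dissection at a matched time of day. Crosslinked chromatin of the whole hippocampus was sonicated and sequenced without an antibody, so reads gather where chromatin breaks easily. The method carries no label for the cell type, so the attribution of these loci to excitatory neurons could not be checked against marker levels. Fewer cells with an accessible locus and lower accessibility in each cell cannot be told apart in such bulk tissue.

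The Neurod proteins are basic helix-loop-helix transcription factors that pair with E proteins and bind the E-box, CANNTG. Neurod1 drives the differentiation of newborn granule neurons of the dentate gyrus, and Neurod2 acts in the differentiation and synapse maturation of cortical and hippocampal glutamatergic neurons. Neurod6 is expressed in pyramidal neurons of cortex and hippocampus. Prox1 is a homeobox factor that specifies and maintains dentate granule cell identity, and it is also made in some interneurons and in lymphatic endothelium.

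The promoters are shown because 2 of the 4 loci carried listed regions and 2 did not, and the sequences differ in their content of CG dinucleotides, which are printed in capitals. All are RefSeq windows of GRCm38.p6, 250 bases before to 50 bases after a transcription start, on the minus strand and written 5′ to 3′: chr2:79456587-79456886 for Neurod1, chr11:98329596-98329895 for Neurod2, chr6:55681214-55681513 for Neurod6 and chr1:190170778-190171077 for one of the Prox1 starts.
Neurod1: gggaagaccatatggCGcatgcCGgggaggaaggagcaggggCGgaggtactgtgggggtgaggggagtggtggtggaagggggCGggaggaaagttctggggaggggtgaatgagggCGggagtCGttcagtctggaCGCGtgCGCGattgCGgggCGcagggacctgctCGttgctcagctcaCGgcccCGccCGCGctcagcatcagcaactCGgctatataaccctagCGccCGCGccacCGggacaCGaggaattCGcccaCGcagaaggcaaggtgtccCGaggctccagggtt
Neurod2: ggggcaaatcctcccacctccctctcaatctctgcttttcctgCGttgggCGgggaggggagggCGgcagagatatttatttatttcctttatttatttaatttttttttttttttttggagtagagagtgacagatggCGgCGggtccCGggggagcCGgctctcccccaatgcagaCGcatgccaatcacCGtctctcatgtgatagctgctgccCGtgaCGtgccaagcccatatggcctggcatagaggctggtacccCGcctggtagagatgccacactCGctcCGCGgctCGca
Neurod6: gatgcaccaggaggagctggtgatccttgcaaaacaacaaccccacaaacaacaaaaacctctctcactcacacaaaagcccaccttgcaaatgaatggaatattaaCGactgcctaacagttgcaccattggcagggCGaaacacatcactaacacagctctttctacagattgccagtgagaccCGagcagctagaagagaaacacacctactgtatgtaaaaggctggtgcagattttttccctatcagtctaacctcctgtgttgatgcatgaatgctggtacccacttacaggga
Prox1: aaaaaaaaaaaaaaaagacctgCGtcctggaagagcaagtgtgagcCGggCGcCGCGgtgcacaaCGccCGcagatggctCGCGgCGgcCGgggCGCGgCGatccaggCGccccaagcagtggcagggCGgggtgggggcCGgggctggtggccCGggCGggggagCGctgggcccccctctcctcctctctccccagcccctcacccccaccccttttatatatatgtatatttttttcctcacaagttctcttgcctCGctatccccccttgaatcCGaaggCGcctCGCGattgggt

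These coordinates belong to another build than the mm9 windows and none were converted, so where a promoter lies relative to a listed region or a peak was not determined. The 2 sequences richest in CG were those of Neurod1, with 26 CG dinucleotides and 66.7% G and C, and the printed Prox1 start, with 25 and 64.3%. The Neurod2 window held 16 CG dinucleotides and the second annotated Prox1 start held 14. The Neurod6 window held 3 CG dinucleotides at 46.3% G and C. Across all 32851 RefSeq promoter windows of this length, the median was 7 CG dinucleotides and 52.7% G and C, and 94.6% held at least 1 CG. The Neurod6 promoter thus lay below the median and the other 4 windows above it. The E-box letters CANNTG, which read the same on both strands, occurred 1 time at Neurod1, 3 times at Neurod2, 2 times at Neurod6, 2 times at the printed Prox1 start and 0 times at the second. Of all promoter windows 72.3% held at least 1 such match, so a match is the common case.

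**Figure D1:**
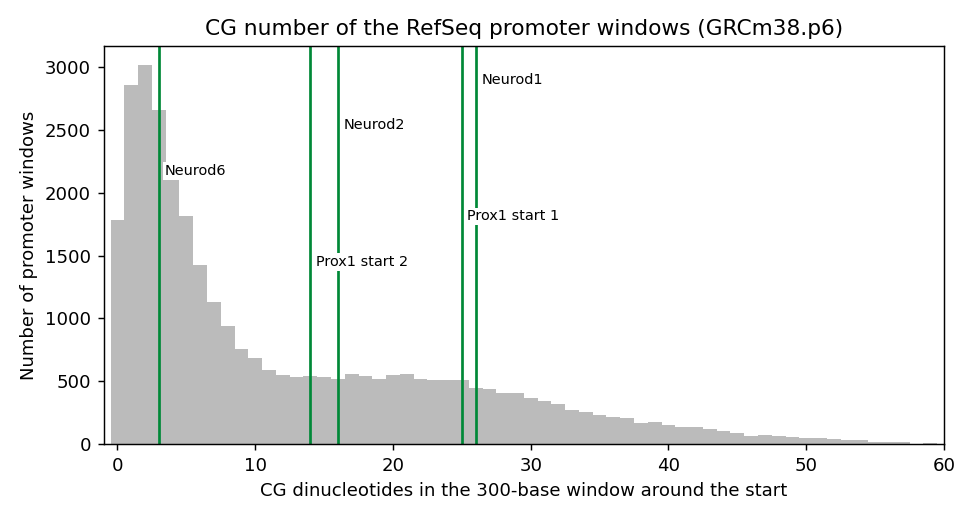
The grey histogram gives the number of RefSeq promoter windows (GRCm38.p6, vertical axis) by their count of CG dinucleotides in 300 bases (horizontal axis), and green lines mark the 5 windows of the 4 genes. Neurod6, at 3, lies below the median of 7, and the Neurod1 and Prox1 start 1 windows, at 26 and 25, lie farthest above it.

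Library depth sets what can be read from these loci. Total counts over the 11304 regions were 36857885 to 83233550 in the conditioned and 36786183 to 66135693 in the control libraries. The 50 regions with the most counts took up 82.5% to 90.8% of the total in conditioned and 87.1% to 96.6% in control libraries. Counts are therefore given as CPM, read counts relative to library size, with TMM factors that set a region against most other regions rather than all reads. The median region had 277 to 1069 reads in the conditioned libraries and 115 to 568 in the controls. Control replicates 1 and 3 were the lowest by this measure, with medians of 142 and 115 reads. In total counts control replicate 1 was the highest of the controls, with 96.6% of them in the 50 regions.

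Peaks stood closest together at Neurod2 and farthest apart at Neurod6. The authors listed peaks in each library separately with a z score of at least 5. Neurod2 held 19, 13, 23 and 24 listed peaks in conditioned mice 1 to 4, against 22, 16, 12 and 13 in control mice 1 to 4. Per kb, that was 1.40 to 2.19 times the density of peaks on chromosome 11 of the same library, above the chromosome in 8 of 8 libraries. Prox1 held 33, 19, 42 and 39 peaks in conditioned mice and 34, 29, 18 and 27 in controls, which was 1.06 to 1.47 times the density on chromosome 1. It too stood above its chromosome in 8 of 8 libraries. Neurod1 held 12, 5, 10 and 11 peaks in conditioned mice and 12, 11, 6 and 6 in controls, with ratios from 0.851 to 1.21 on both sides of 1. Neurod6 held 10, 4, 7 and 12 peaks in conditioned mice and 12, 9, 3 and 7 in controls. Its density was 0.453 to 0.944 times that of chromosome 6, below the chromosome in all 8 libraries.

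**Figure D2:**
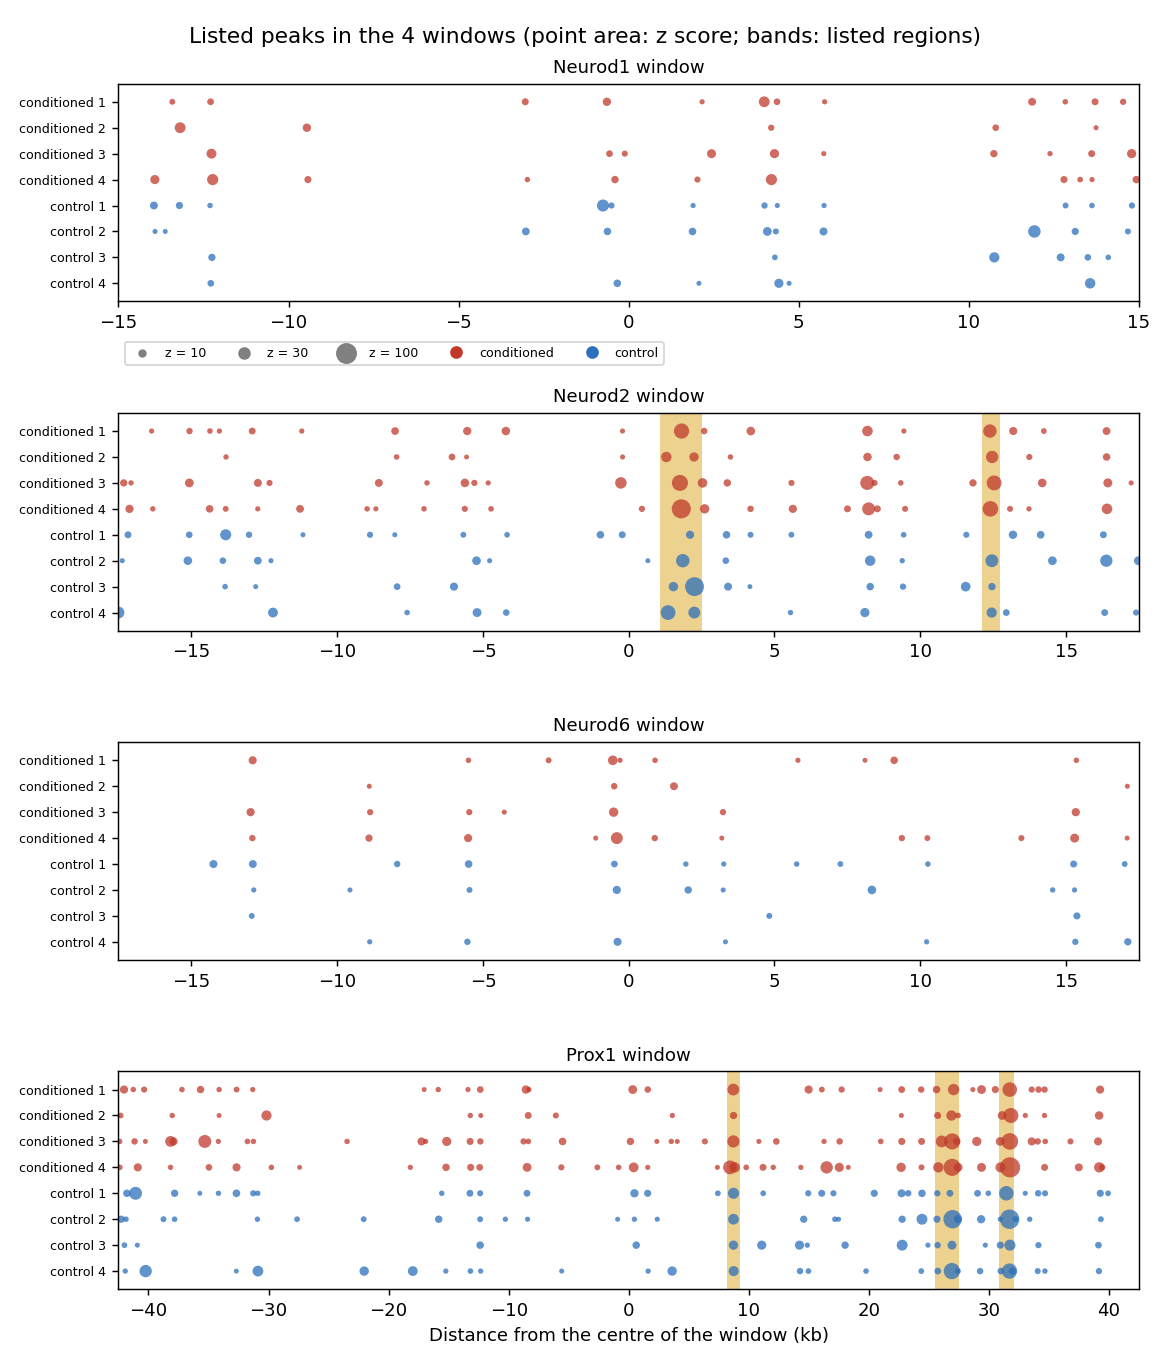
Each point is a listed peak, placed by its distance from the centre of the window in kb (horizontal axis) and by library (vertical axis, conditioned above control), with its area giving the z score and ochre bands marking the 5 listed regions. Large points stack up inside the bands of the Neurod2 and Prox1 windows, and the Neurod1 and Neurod6 windows have mostly small points and no band.

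Strong peaks were most frequent at Neurod2 and least frequent at Neurod6. A library counted as a carrier of a region where it had an overlapping peak of z at least 30, which returned the deposited carrier number in 11304 of 11304 regions, and every listed region had at least 4 carriers. Over the 8 libraries the Prox1 window held 27 peaks at this z, 19 of them in a listed region, and the Neurod2 window held 18, 12 of them in a listed region. Both windows had such a peak in 8 of 8 libraries, and per 10 kb of window the 8 libraries together gave 3.18 at Prox1 and 5.14 at Neurod2. The Neurod1 window held 6 peaks of z at least 30 in 5 libraries, and the Neurod6 window held 1, in conditioned mouse 4, which made 2.00 and 0.286 per 10 kb. The absence of listed regions at Neurod1 and Neurod6 was thus an absence of strong peaks shared by 4 libraries, not of listed peaks, of which there were 73 and 64.

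Neurod2 carried a broad and a narrow region, 9598 bp apart. Region 1, chr11:98188582-98190031, spanned 1449 bp, longer than 81.6% of all regions, with a mean z of 67.8 and 6 carriers. Region 2, chr11:98199629-98200240, spanned 611 bp with a mean z of 51.8 and 5 carriers. The medians over all regions were 858 bp and a mean z of 58.9. In the 5 listed regions of these loci, the mean z was the mean over peaks of z at least 30. Libraries without such a peak did not enter it. In the wider region the highest z was 62.6, 28.6, 70.3 and 99.5 in conditioned mice 1 to 4, against 16.6, 48.5, 97.3 and 59.2 in control mice 1 to 4. The groups overlapped over nearly their whole range. The strongest peak was at least 400 bp wide in 5 libraries and a single 50 bp step in the other 3, conditioned mouse 2 and control mice 3 and 4. Conditioned mouse 2 and control mouse 3 also had a wider peak there of lower z, 500 bp at z 22.3 and 950 bp at z 22.9.

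The narrow Neurod2 region had strong peaks mainly in the conditioned libraries. Its highest z was 48.2, 40.6, 59.9 and 65.8 in conditioned mice 1 to 4, and 44.3, 13.3 and 27.5 in control mice 2, 3 and 4, with no listed peak in control mouse 1. That made 4 conditioned and 1 control carriers. Every listed region had at least 4 carriers, so this one was on the list through its conditioned libraries. The share of all listed regions with such a split was not counted, and the split is given as a description alone. Its read levels, given further on, did not differ in this way. Peaks of z at least 30 numbered 26530 to 66552 in whole conditioned libraries and 13063 to 59212 in whole control libraries, and control mice 1 and 3, with the lowest median reads, had the fewest. The part of library depth in the carrier difference was not tested.

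A site between the Neurod2 regions and outside both had a peak within 100 bp in 8 of 8 libraries. It lay at chr11:98195551-98195800, and its highest z was 29.4, 18.2, 53.2 and 44.9 in conditioned mice, against 15.0, 28.5, 14.0 and 21.8 in controls. It reached z 30 in 2 libraries and therefore missed the region list. A further site at chr11:98203751-98204000 was shared by 7 libraries, with z from 11.3 to 40.4.

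Prox1 held the one region of the 5 that all 8 libraries carried. Region 3, chr1:191998329-191999579, spanned 1250 bp with a mean z of 70.1 and 8 carriers, a number that 4.96% of all listed regions had. Its highest z was 57.5, 60.8, 75.4 and 111 in conditioned mice 1 to 4 and 56.6, 103, 32.6 and 63.4 in control mice 1 to 4. In 6 libraries the highest peak of the whole window started within 156 bp, between chr1:191999177 and chr1:191999333. The strongest peak of the Prox1 window thus began at nearly the same place in 4 conditioned and 2 control mice. In control mouse 1 it was an 850 bp peak, chr1:191998529-191999379, that covered this whole stretch. In control mouse 4 it lay elsewhere, at chr1:191994419.

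The other Prox1 regions were a weak broad one and a long one built on narrow peaks. Region 1, chr1:191975694-191976744, had a mean z of 38.2, higher than 5.33% of all regions, with 5 carriers. It was nevertheless a shared feature, with a peak in 8 of 8 libraries, at least 400 bp wide in 7 of them. Its highest z was 37.1, 13, 39.7 and 51.0 in conditioned mice, against 32.7, 30.5, 22.3 and 26.6 in controls. Region 2, chr1:191992994-191995038, spanned 2044 bp, longer than 94.3% of all regions, with a mean z of 64.4 and 5 carriers. Its strongest peaks were single 50 bp steps in 6 libraries, with z of 34.3, 27.9, 70.8 and 80.1 in conditioned mice, against 11.4, 92.4, 20.4 and 72.0 in controls. Region 2 thus varied more between libraries in z than region 1, and its length did not come from a wide peak in most of them. In TMM-scaled CPM the order was opposite. The highest library stood at 2.87 times the lowest in region 2 and at 8.09 times in region 1. The window also held 10 shared sites outside the regions, each within 100 bp of a peak in at least 6 libraries. The last of them, chr1:192006551-192006800, had a z of 16.6, 18.5, 16.4 and 27.8 in conditioned mice 1 to 4 and 12.5, 7.81, 10.8 and 9.19 in control mice 1 to 4. The groups did not overlap there, but the site was picked from the 15 shared sites of the window after its values were seen. It was given no test, and the part of library depth in its z was not tested. A gap of 3291 bp separated regions 2 and 3, and 16250 bp separated regions 1 and 2.

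Neurod1 had recurrent peaks of low z. Sites within 100 bp of a peak in at least 6 libraries numbered 3 in its window, and the one at chr2:79299201-79299400 was shared by 8 of 8. The z there was 10.7, 8.98, 21.8 and 32.9 in conditioned mice 1 to 4 and 5.53, 8.47, 7.35 and 21.8 in control mice 1 to 4. The highest z of the Neurod1 window was 30.5, 31.1, 25.7 and 33.2 in conditioned mice, against 38.9, 41.7, 27.2 and 29.1 in controls. These strongest peaks were scattered, since at most 2 libraries, conditioned mice 3 and 4, had theirs within 200 bp of each other.

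Neurod6 was the weakest locus by z, with one recurrent position near the middle of its window. The site chr6:55626951-55627150 had a peak in 7 libraries, with z of 23.9, 10.0, 22.7 and 37.7 in conditioned mice 1 to 4 and 10.8, 17.1 and 16.4 in control mice 1, 2 and 4. It was the strongest point of the window in 4 libraries, conditioned mice 1, 3 and 4 and control mouse 4. The window held 4 sites shared by at least 6 libraries, and 0 shared by all 8. Recurrent peaks therefore existed at Neurod6, but 92.2% of its 64 listed peaks were single 50 bp steps and 1 reached z 30.

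How often peaks recur was set against the 19 autosomes by counting 50 bp steps with a peak in at least 4 of the 8 libraries. Such steps made up 2.38% of the autosomes, 3.71% of the Neurod2 window and 3.88% of the Prox1 window. At Neurod1 and Neurod6 they made up 0.166% and 0.143%, which was 1 step in each. Most listed peaks are single steps, so a small offset between libraries hides a shared position. With 100 bp allowed on either side of a peak, a setting chosen after seeing the data, the shares were 8.13% on the autosomes, 13.7% at Neurod2, 10.3% at Prox1, 7.49% at Neurod1 and 4.56% at Neurod6. Neurod1 then lay close to the autosomes, and Neurod6 stayed below them. Steps near a peak of all 8 libraries made up 0.551% of the autosomes, 2.00% of the Prox1 window, 0.999% of the Neurod2 window and 0.166% of the Neurod1 window. The shares describe windows of 30 to 85 kb and were given no test.

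**Figure D3:**
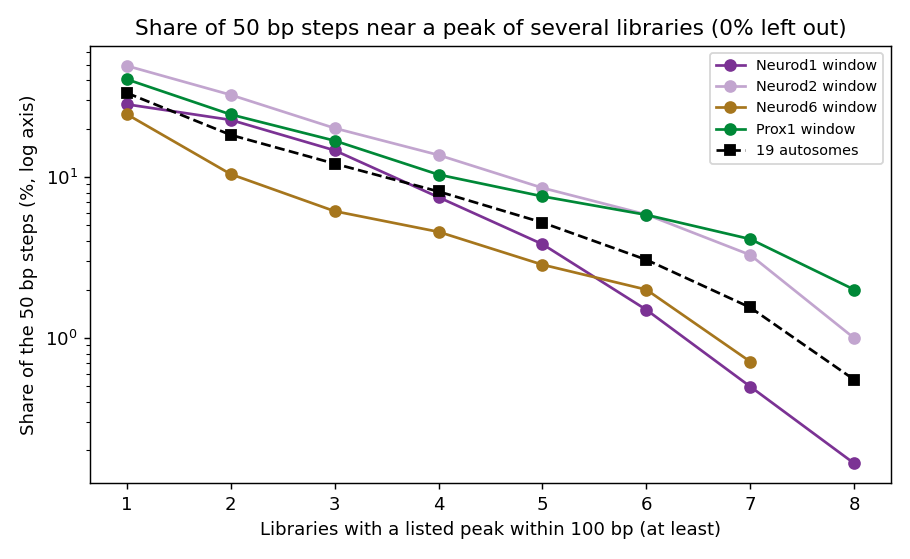
The share of 50 bp steps (%, log axis) that lie within 100 bp of a listed peak in at least the number of libraries on the horizontal axis is plotted for the 4 windows (coloured lines) and the 19 autosomes (dashed black line). From 4 libraries on, the Neurod2 and Prox1 lines run above the autosomes and the Neurod1 and Neurod6 lines below.

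Read levels of the 5 regions were compared per kb of region length, over all 8 libraries. They were 12.6 ± 12.4 CPM per kb at Neurod2 region 1, 9.74 ± 6.23 at Neurod2 region 2, 6.75 ± 3.51 at Prox1 region 3, 4.40 ± 2.98 at Prox1 region 1 and 2.70 ± 1.01 at Prox1 region 2 (SD, n = 8). The median over all regions was 8.04 CPM per kb, so both Neurod2 regions lay above it and the 3 Prox1 regions below. In no pair of neighbours in this order was the mean difference within libraries larger than its SD over the 8 libraries. This describes the spread and does not test the order. The largest such difference, between Prox1 region 3 and Prox1 region 1, was 0.74 ± 0.79 on the log2 scale (SD), positive in 6 of 8 libraries. Taken over whole loci, Neurod2 exceeded Prox1 by 1.34 ± 0.84 on the log2 scale, in 7 of 8 libraries.

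The balance within a locus was not fixed either. Region 1 gave 74.1%, 43.3%, 68.7% and 76.0% of the Neurod2 reads in conditioned mice 1 to 4, against 90.1%, 44.5%, 94.9% and 72.6% in control mice 1 to 4. Replicate 2 was the one library of either group with more reads in the narrow region than in the wide one. At Prox1, region 3 gave 39.3%, 60.6%, 38.6% and 49.7% of the locus in conditioned mice and 55.8%, 43.6%, 33.9% and 36.4% in controls. No Prox1 region was always the largest, since region 2 held the most in conditioned mouse 3 and control mouse 4.

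**Figure D4:**
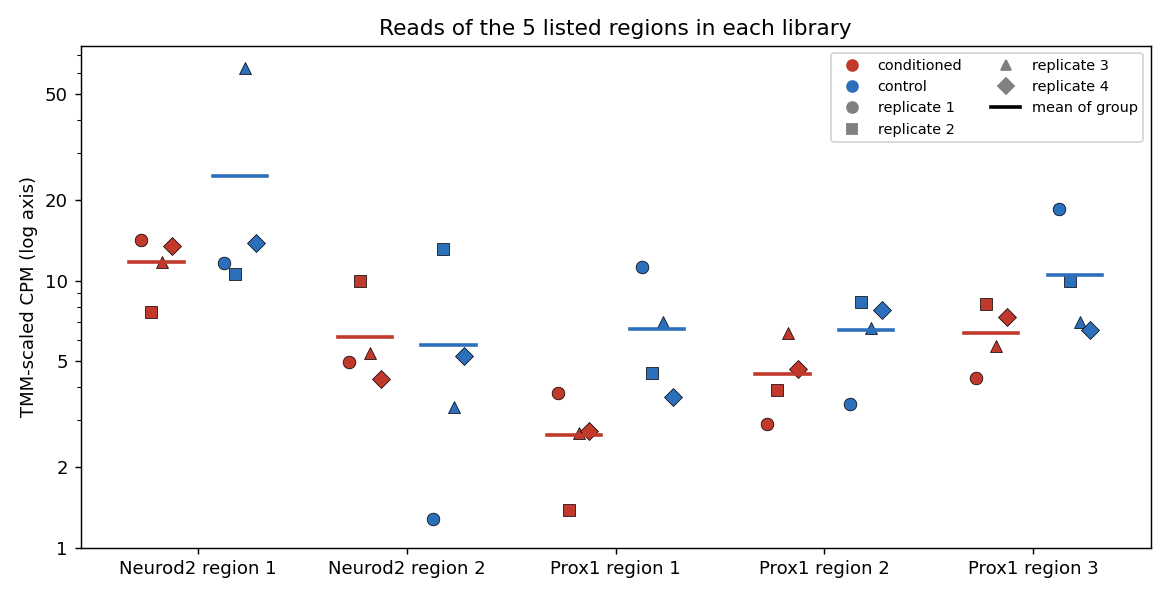
Points give the TMM-scaled CPM (log axis) of each of the 5 regions in each library, conditioned at left and control at right, with the shape giving the replicate and the bar the mean of the group. Control replicate 3 stands alone at 62.4 CPM in Neurod2 region 1, and control replicate 1 is highest in Prox1 regions 1 and 3.

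Whether conditioning was accompanied by a change at these loci was tested with edgeR's quasi-likelihood test over all 11304 regions. At Neurod2 region 1, raw counts were 1151, 335, 1360 and 2259 in conditioned mice 1 to 4 and 256, 975, 1168 and 824 in control mice 1 to 4. Scaled, they were 14.2, 7.61, 11.8 and 13.5 CPM in conditioned mice, against 11.7, 10.6, 62.4 and 13.9 CPM in controls. Control mouse 3 stood apart, and the other 3 controls lay within the conditioned range. The log2 fold change was -1.06 (SE 0.54, edgeR adjusted p = 0.659). Without control mouse 3 it was -0.055, and that library had a single-step peak of z 97.3 in the region. DESeq2 gave this region no p-value.

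At Neurod2 region 2, counts were 403, 439, 621 and 715 in conditioned mice and 28, 1216, 63 and 311 in controls. The scaled values were 4.97, 9.97, 5.37 and 4.27 CPM in conditioned mice, against 1.28, 13.2, 3.36 and 5.23 CPM in controls. The controls spread on both sides of the conditioned mice. The log2 fold change was 0.083 (SE 0.61, edgeR adjusted p = 0.989), with a 95% interval from -1.21 to 1.37. It was -0.26 without control mouse 1 and 0.89 without control mouse 2, so its direction was set by single libraries.

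The 3 Prox1 regions all had lower mean levels in conditioned mice. Region 1 had 3.79, 1.39, 2.68 and 2.73 CPM in conditioned mice 1 to 4, against 11.2, 4.53, 6.99 and 3.67 CPM in control mice 1 to 4. The groups overlapped by one library each, conditioned mouse 1 lying above control mouse 4. Region 2 had 2.90, 3.91, 6.38 and 4.67 CPM in conditioned mice and 3.46, 8.33, 6.67 and 7.79 CPM in controls. Region 3 had 4.33, 8.15, 5.71 and 7.31 CPM in conditioned mice and 18.5, 9.95, 6.99 and 6.55 CPM in controls. In both, the highest conditioned value exceeded the lowest control value.

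None of these differences passed the test. The log2 fold changes were -1.31 at Prox1 region 1 (SE 0.52, edgeR adjusted p = 0.606), -0.56 at region 2 (SE 0.47, edgeR adjusted p = 0.824) and -0.72 at region 3 (SE 0.45, edgeR adjusted p = 0.738). The counts behind them were 61 to 1224 reads in conditioned and 76 to 919 reads in control libraries. Without control mouse 1 the value at region 3 was -0.31 and that at region 1 was -0.94. Without control mice 1 and 3, the lowest in median reads, the value at region 1 was -0.64 (edgeR adjusted p = 0.746). It was -0.87 at region 2 and -0.39 at region 3. Prox1 region 1 was the one member with an unadjusted p below 0.05, at 0.0235 in edgeR and 0.00767 in DESeq2, where its adjusted p was 0.247. Its unadjusted p was 0.0578 in limma voom and 0.0761 in edgeR without control mouse 1. In edgeR it was 0.0635 without conditioned mouse 2 and 0.255 without control mice 1 and 3.

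Over the 5 regions, 0 were called by edgeR at an adjusted p below 0.05, where 0.00% of all regions were called, and 0 by DESeq2, where 0.359% were. At an unadjusted p below 0.05 and lower in conditioned mice, 1 of the 5 was found, against 6.03% of all regions. Groups that did not overlap were found in 0 of the 5, against 2.40% of all regions in either direction and 0.902% lower in conditioned mice. The median log2 fold change of the 5 was -0.72 and 4 were below 0, beside a median of -0.049 over all regions, with 5% of them below -1.37. All 5 lay inside the central 90% of regions, with Prox1 region 1 the closest to its lower edge.

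**Figure D5:**
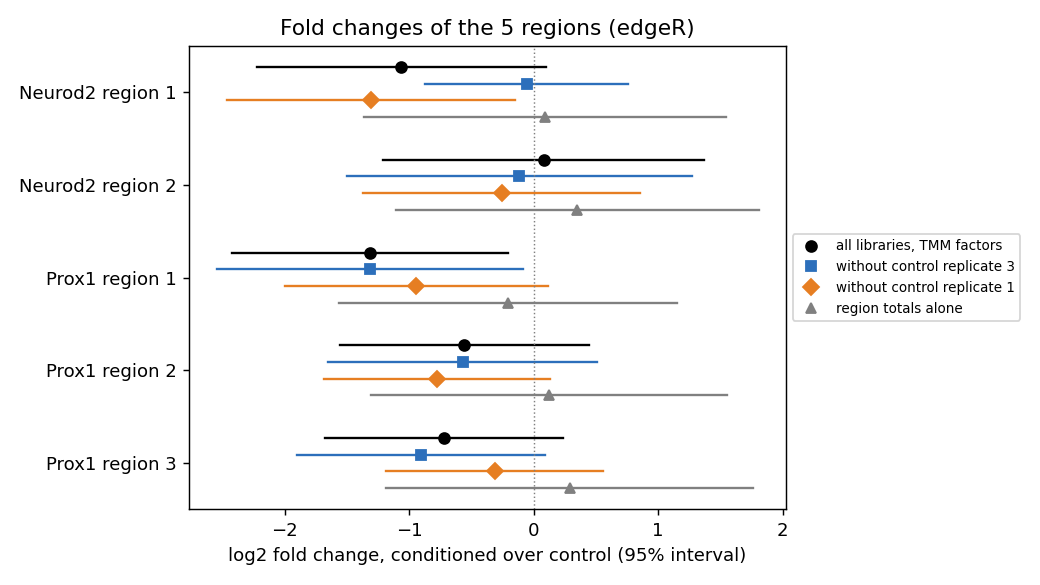
Log2 fold changes, conditioned over control, with 95% intervals from edgeR are plotted for each region (horizontal axis) with all libraries, without control replicate 3, without control replicate 1 and with region totals alone. The Neurod2 region 1 value moves to near 0 without control replicate 3, and region totals alone place Neurod2 region 1 and Prox1 regions 2 and 3 above 0.

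Summed over its regions, each locus gave 1 value per library, which was compared by an exact permutation test of the group labels over 70 arrangements. The Prox1 sum was 11.0, 13.4, 14.8 and 14.7 CPM in conditioned mice 1 to 4, against 33.2, 22.8, 20.7 and 18 CPM in control mice 1 to 4. All 4 conditioned mice lay below all 4 controls, at 13.5 ± 1.75 CPM in conditioned and 23.7 ± 6.64 CPM in control mice (SD, n = 4 each). The difference was -0.78 on the log2 scale (SE 0.21, exact permutation p = 0.0286, two-sided). That is the smallest p this design allows, and over the 2 loci with regions the Benjamini-Hochberg adjusted p was 0.0571, which misses the 0.05 threshold. After this adjustment a locus at the smallest p could not pass alone, so the miss does not decide the question. No Prox1 region separated the groups alone, and how often sums of neighbouring regions do so was not counted.

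This Prox1 difference depended in part on the scaling. It was -0.82 with DESeq2 size factors and -0.70 with upper-quartile factors, both at exact permutation p = 0.0286 and adjusted p = 0.0571. With region totals alone, which leave the few very high regions in the library size, it was 0.21 (exact permutation p = 0.714), while the median of all regions stood at 0.75. Relative to that median, all 3 Prox1 regions were lower in conditioned mice, by values from -0.95 to -0.46. With TMM factors the values relative to the median of that scaling were -1.26 to -0.51. This was not particular to Prox1. Neurod2 regions 1 and 2 stood at -0.66 and -0.40 with region totals alone, and at -1.01 and 0.13 with TMM factors. Leaving out 1 library at a time kept the TMM-scaled Prox1 difference between -0.90 and -0.61.

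The Neurod2 sum showed no separation. It was 19.2, 17.6, 17.1 and 17.8 CPM in conditioned mice 1 to 4, against 12.9, 23.7, 65.7 and 19.1 CPM in control mice 1 to 4. The conditioned mice were close together, at 17.9 ± 0.884 CPM in conditioned and 30.4 ± 24.0 CPM in control mice (SD, n = 4 each), and they fell inside the control range. The difference was -0.48 on the log2 scale (SE 0.50, exact permutation p = 0.486, Benjamini-Hochberg adjusted p = 0.486). Without control mouse 3 it was -0.011, and without control mouse 1 it was -0.79.

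No difference in highest z between the groups held up against the spread between animals. The highest z of the Prox1 window averaged 76.2 ± 24.6 in conditioned and 66.2 ± 29.6 in control mice (SD, n = 4 each), a difference of 10.1 (exact permutation p = 0.571, adjusted p = 0.600 over 4 loci). It turned to -1.58 without conditioned mouse 4, the deepest library, and to -1.08 without control mouse 3, the shallowest by median reads. As a percentile within the library the difference was 0.344. For the other loci the differences were 8.91 at Neurod2, 9.10 at Neurod6 and -4.11 at Neurod1, with exact permutation p of 0.600, 0.114 and 0.343. These too moved with single libraries, as Neurod2 stood at -1.51 without conditioned mouse 4 and -0.071 without control mouse 1, Neurod6 at 4.87 without conditioned mouse 4, and Neurod1 at -1.61 without control mouse 2. At Neurod6 the highest z was 23.9, 15.8, 22.7 and 37.7 in conditioned mice 1 to 4, against 16.2, 19, 12.1 and 16.4 in control mice 1 to 4. The groups overlapped through conditioned mouse 2. None of the 4 loci passed the threshold in highest z, the smallest adjusted p being 0.457. Adjusted over 4 loci, a locus at the smallest exact permutation p of 0.0286 could not pass alone. The adjusted p therefore cannot decide on a difference at a single locus.

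The length covered by peaks of z at least 30 varied widely within either group. At Neurod2 it was 1050, 200, 1150 and 1250 bp in conditioned mice 1 to 4, against 50, 1150, 50 and 150 bp in control mice 1 to 4. Conditioned mouse 2 and control mouse 2 were the exceptions to a longer cover in conditioned mice, and the difference of 562.5 bp did not pass (exact permutation p = 0.143, adjusted p = 0.400). At Prox1 it was 1350, 50, 1800 and 350 bp in conditioned mice, against 1600, 700, 250 and 200 bp in controls, a difference of 200 bp (exact permutation p = 0.800, adjusted p = 1.00). Counting peaks of z at least 15 widened it to 3250 bp in conditioned and 1187.5 bp in control mice, a difference of 2062.5 bp that also missed the threshold (exact permutation p = 0.0571, adjusted p = 0.114). At Neurod1 it was 100, 100, 0 and 350 bp in conditioned mice and 50, 50, 0 and 0 bp in controls (exact permutation p = 0.200, adjusted p = 0.400). Neurod6 had 50 bp in conditioned mouse 4 and 0 bp in every other library. In covered length too, no locus could pass alone after the adjustment, whatever its values. The part of the number of strong peaks per library in these differences was not tested.

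The regions whose levels moved most like the strongest region of a locus were looked up over all 11304 regions as a description, from log2 CPM in 8 libraries that share the scaling. For Neurod2 region 1 these were chr16:18586223-18587210, chr15:36139996-36140553 and chr18:44821181-44821943, with Pearson's r of 0.985, 0.977 and 0.975. Altogether 65 regions had an r of at least 0.9 with it, and control mouse 3 is the library that stands apart in its own levels. For Prox1 region 3 they were chr13:100114081-100114865, chr5:31494804-31496201 and chr4:151235580-151236898, with r of 0.937, 0.936 and 0.931. Here 7 regions had an r of at least 0.9.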

How the data were processed

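The deposited files were a table of raw read counts for 11304 regions in 8 libraries, a region list and 1 peak list per library. The counts were deposited by the authors without normalisation, and 0 table columns were left unused. The region list gives each region's average z score and how many libraries carried it (4 to 8), per the file headers. The z score per peak is the authors' own deposited score of unstated scaling. Bowtie2 and the mm9 build are named in the submitters' processing notes. For the peak caller and for duplicate or multimapping reads, the tools and settings were not stated. Reads carry no molecular identifiers, so high counts need not be independent molecules.

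edgeR 4.0.16 under R 4.3.3 was used to test the counts (glmQLFTest, group as the only term, TMM factors, filterByExpr with a minimum count of 10 and total of 15, which removed 0 regions, two-sided, Benjamini-Hochberg over all regions, threshold 0.05). The edgeR step was tested on simulated data. DESeq2 1.42.0 and limma 3.58.1 (voom) were alternatives. Sums per window, highest z and covered length were compared by exact permutation over 70 arrangements, adjusted over the windows that gave a value. That was 2 windows in place of the planned 4 for summed reads. Peaks lie on a grid of 50 bp, and covered length counts every peak as 50 bp longer than deposited. All regions overlapping a window are reported, and for the region with the highest CPM per kb of a locus the 3 most correlated regions are named. The labels describe separate animals, so p-values reflect variation among animals and among library preparations. Variation among days of the protocol may also enter them, since no label gives the day of an animal. The windows, lists and tests were chosen with earlier results of these data known. Since mm9 sequence and annotation were not used here, regions were not assigned to exons, introns or promoters, and the other genes of the pathway were not analysed here. Neighbouring genes in the GRCm38.p6 table are Cerkl and Itprid2 for Neurod1, Cdk12 and Gm33099 for Neurod2, Adcyap1r1 and Itprid1 for Neurod6, and Smyd2 and Rps6kc1 for Prox1. Whether they reach into the mm9 windows was not determined.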

Additional observations from a re-analysis of the deposited data

Results flagged for a closer look

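Values of 30 groups of 4 libraries were checked for a library far from the other 3 (Dixon's criterion for 4 values), and 3 were found. The criterion flags about 1 in 20 groups of independent normal values. These groups share libraries and measures, so that rate does not apply directly here. Control mouse 3 had 62.4 CPM at Neurod2 region 1, while the other controls had 10.6 to 13.9 CPM. Control mouse 2 had 1150 bp covered by peaks of z at least 30 in the Neurod2 window, while the other controls had 50 to 150 bp. Conditioned mouse 4 had 50 bp covered at this z in the Neurod6 window, while the other conditioned mice had 0 bp. With 0 bp in those mice, any covered length in the remaining one would have been flagged.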

How the results depend on the processing

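Across the alternatives for these loci, 18 of 222 values changed sign and 0 passed the threshold. Some of the 222 could not change sign, such as the counts of regions past the threshold and settings that repeated the main result. Others could not pass, such as the sign-flip tests and a DESeq2 value without a p-value. Neither count therefore measures how stable the results are. Region totals alone turned the summed reads to 0.51 at Neurod2 and 0.21 at Prox1, and the log2 fold changes to 0.090 at Neurod2 region 1, 0.13 at Prox1 region 2 and 0.29 at Prox1 region 3, with the median of all regions at 0.75. At Neurod2 region 2, limma voom gave -0.076 and controls 2 and 4 alone, a choice made after seeing the data, gave -0.60. That choice gave -0.64 at Prox1 region 1 and -0.39 at Prox1 region 3. The highest z at Neurod2 turned to -0.0795 as a percentile within the library, and as mean z of the peaks it was -0.763 at Neurod2 and 0.769 at Neurod1. Covered length over all listed peaks differed by 478, 992.5, 512.5 and 735 bp at Neurod1, Neurod2, Neurod6 and Prox1, with the lowest adjusted p at 0.514. The cause of these changes was not tested.

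Leaving out 1 library at a time gave -1.51 to 21.6 for highest z at Neurod2, -1.58 to 22.5 at Prox1, -104 to 504 bp for covered length at Prox1 and -0.26 to 0.89 for the log2 fold change of Neurod2 region 2. Apart from covered length at Neurod6, which was 0 bp in either group without conditioned mouse 4, the other values kept their sign, at -6.44 to -1.61 for highest z at Neurod1, 4.87 to 12.2 at Neurod6, 41.7 to 158 bp for covered length at Neurod1, 450 to 829 bp at Neurod2, -1.31 to -0.055 for Neurod2 region 1 and -1.55 to -0.94 for Prox1 region 1. Keeping the regions wholly inside a window, or dropping the count filter, left the same regions and so tested nothing.

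The sample titles carry the numbers 1, 4, 6 and 9 in both groups, given here as mice 1 to 4. The submitters' design text has the protocol repeated over 4 days, and no label says that a number marks a shared day. Same-numbered animals were not paired by the labels, and the correlations of their deviations were 0.161, 0.048, -0.063 and 0.272. With the replicate block the log2 fold changes were -0.62 and 0.45 at Neurod2 and -1.27, -0.54 and -0.60 at Prox1, with 0 of 5 past the threshold. The summed Prox1 difference of -0.78 then had an exact sign-flip p of 0.125, the smallest that 4 pairs allow.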
